A study of Mus musculus with 4 samples.

Results

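The genes described here move fat into, through and out of the liver cell. They are 10 genes: the fatty acid translocase Cd36, the fatty acid binding proteins Fabp1 and Fabp2, the lipid droplet coat protein Plin2, the microsomal triglyceride transfer protein Mttp, the apolipoprotein Apoa4, lipoprotein lipase (Lpl), hepatic lipase (Lipc), the phospholipid transfer protein Pltp and the very low density lipoprotein receptor Vldlr. They were taken by name from the platform's annotation of probe sets, as a list drawn up with earlier results of these data known. Of the 10 genes, 9 had a probe set, out of 8251 genes named on the array, and these carried 13 of its 12488 probe sets. No probe set of the annotation names Lipc, which was not analysed here.

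Liver RNA of control mice (replicates 7 and 8) was set against that of hepatic reductase null mice (replicates 7 and 8) on 4 Affymetrix MG_U74Av2 arrays, 2 per genotype. The reductase is taken to be NADPH-cytochrome P450 oxidoreductase (Por), the electron donor of the microsomal P450 enzymes. In the known line of this name a Cre recombinase driven by the albumin promoter deletes Por in hepatocytes, so other liver cells keep it, and the liver is known to accumulate fat. No labelled treatment or time separates the groups, and the sources used here give no strain, allele, sex, age or diet. The labels state that each experiment pooled RNA from 3 animals per genotype. Titles of control samples name a mouse, so whether an array holds a pool or 1 animal is unclear, and the p-values measure only the spread between these samples, which may be technical. Por is named by no probe set, so the genotype labels could not be checked against it.

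Fatty acids enter hepatocytes through Cd36 and related transporters and are held in the cytosol by fatty acid binding proteins. They are stored as triglyceride in droplets coated by perilipins or loaded onto apolipoprotein B by Mttp and secreted. In the circulation lipases and transfer proteins remodel these particles, and receptors take them up. Several of these genes, among them Cd36, Fabp1, Plin2 and Lpl, are textbook targets of the fatty acid receptors of the PPAR family.

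Apoa4 had the largest difference among the members, with a signal about 3.33-fold higher in null liver, and Lpl and Mttp were higher on both null arrays by smaller amounts. Plin2, the droplet coat protein, differed by less than the spread between arrays. Fabp1 lay slightly lower on both null arrays, and Cd36 and Vldlr stayed close to background on all 4 arrays. None of the tested members passed an adjusted p of 0.05 in limma, with the adjustment over the 7241 probe sets bright enough to test, and Cd36 and Vldlr were too dim to be tested. Apoa4 missed it narrowly (adjusted p = 0.0538).

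**Figure D1:**
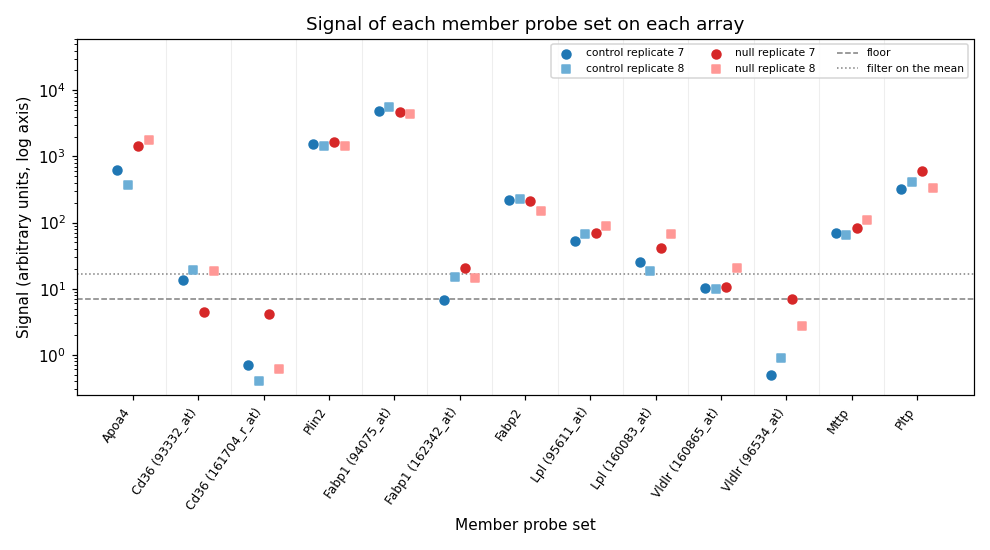
Signal of each of the 13 member probe sets (log axis, arbitrary units) on the 2 control arrays (blue) and the 2 null arrays (red), with the floor of 7.1 dashed and the filter of 16.8 dotted. The Apoa4 points of the genotypes are apart, those of Plin2 are mixed, and both Cd36 and both Vldlr probe sets lie around or under the dotted line. Signals of different probe sets are not comparable as levels.

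Signals were floored at 7.1, below which a signal was treated as background, and a probe set was tested when its mean log2 signal lay above that of 16.8. By this rule 8 member probe sets of 7 genes were tested, and 5 were not: both of Cd36, both of Vldlr and the dimmer of Fabp1. Of the 8 tested, 0 were called higher and 0 lower, where 0.387% of all 7241 tested probe sets were called (0.304% higher and 0.0829% lower). At an unadjusted p under 0.05 there were 3 of the 8, against 12.6% of all tested probe sets (6.16% higher and 6.46% lower). Null and control arrays did not overlap for 6 of the 8, 4 of them higher and 2 lower in null liver, against 43.8% of all tested probe sets (20.4% higher and 23.4% lower). The 4 higher ones include both probe sets of Lpl, which measure 1 gene.

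Among the genes of uptake and cytosolic binding, Cd36, the scavenger receptor that carries long-chain fatty acids across the membrane, had signals of 13.6 and 18.9 in control liver and 4.4 and 18.4 in null liver. Null replicate 7 lay under the floor and the other null array lay within the control range, so the genotypes overlapped. Its other probe set was under the floor on all 4 arrays, between 0.4 and 4.1. Cd36 thus gave no signal far enough above background to compare the genotypes.

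Fabp1, the abundant fatty acid binding protein of liver, had signals of 4916.4 and 5558.1 in control liver and 4669.7 and 4353.9 in null liver. Both null arrays were below both control arrays. The means were 5237 ± 454 in control and 4512 ± 223 in null liver (SD, n = 2 each), a log2 difference of -0.21 ± 0.08 (SE, 95% interval -0.41 to -0.02, adjusted p = 0.354 in limma). Without control replicate 8 it was -0.12. The dimmer Fabp1 probe set, not tested, lay at 6.8 and 15.2 in control and 20.2 and 14.5 in null liver, near the floor and with overlap.

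Fabp2, the intestinal form of the binding protein, which the liver also expresses at a lower level, was measured at 219.3 and 224.7 in control liver and at 214.8 and 149.9 in null liver. Null replicate 7 was close to the controls and null replicate 8 clearly lower. The log2 difference was -0.31 ± 0.19 (SE, 95% interval -0.77 to 0.15, adjusted p = 0.571), and it was -0.05 without null replicate 8 and -0.57 without null replicate 7. The null mean of 182 ± 45.9 (SD, n = 2) thus rests on 1 array, while the control arrays differed little (222 ± 3.82). Of 9 enterocyte markers with a probe set 2 lay under the floor on all arrays, Vil1 and Cdx1, and the list summed to between 97.4 and 115.2 on the 4 arrays. Its brightest member, Lgals4, was at 54.7 and 62.8 in control and 41.3 and 56.2 in null liver.

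Plin2, which coats lipid droplets in hepatocytes and is often used as a mark of stored fat, had signals of 1522.4 and 1439.5 in control liver and 1682.5 and 1443.9 in null liver. Null replicate 8 lay between the controls, so the genotypes overlapped. The means were 1481 ± 58.6 and 1563 ± 169 (SD, n = 2 each), and the log2 difference was 0.074 ± 0.10 (SE, adjusted p = 0.81 in limma). The 95% interval of the ratio of null to control ran from 0.89 to 1.25. This interval depends on the fit, since without its intensity trend the SE was 0.16, so a larger rise of Plin2 RNA is not excluded. The log2 difference was -0.036 without null replicate 7 and 0.185 without null replicate 8. No measure of liver fat was among the data used here.

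The 300-base windows at the gene starts of Fabp1 and Plin2, both classical PPAR targets, are shown because the values of both can be set beside those of the receptor's other targets. They are RefSeq sequences of GRCm38.p6, 5′ to 3′ on the gene's strand, from 250 bases before to 50 after the start. Capitals mark AGGTCA, the half-site of nuclear receptors (here on the opposite strand, TGACCT), and the TATA box TATAAA. Fabp1 lies at chr6:71199629-71199928 on the plus strand, with half-sites that begin 67 and 9 bases before the start and a TATA box that begins 30 bases before it. Plin2 lies at chr4:86670010-86670309 on the minus strand, with a half-site that begins 218 bases before the start.
Fabp1: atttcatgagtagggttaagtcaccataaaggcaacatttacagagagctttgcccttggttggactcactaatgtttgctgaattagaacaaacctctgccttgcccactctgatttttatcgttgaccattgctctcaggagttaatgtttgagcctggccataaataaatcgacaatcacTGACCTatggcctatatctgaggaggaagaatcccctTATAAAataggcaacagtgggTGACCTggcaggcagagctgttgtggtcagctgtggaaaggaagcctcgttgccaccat
Plin2: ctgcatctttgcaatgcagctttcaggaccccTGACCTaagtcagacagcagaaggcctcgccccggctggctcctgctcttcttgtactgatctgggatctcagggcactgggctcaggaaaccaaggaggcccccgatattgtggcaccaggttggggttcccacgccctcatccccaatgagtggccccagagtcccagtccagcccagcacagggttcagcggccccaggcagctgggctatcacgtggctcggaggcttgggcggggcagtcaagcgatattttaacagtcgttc
Windows were at hand for 9 of the 10 members, 11 windows in all, and none was listed for Lpl. Of the 11 windows 4 held AGGTCA on either strand (Cd36, Plin2, Fabp1 and 1 of the Lipc windows), against 16.3% of the 32851 windows of all genes. An exact direct repeat of this half-site with 1 base between the copies was in 0 of the 11 and in 0.0396% of all windows. Repeats with a changed letter were not searched for, so this count says nothing about them. In the Fabp1 window the TGACCT that begins 67 bases before the start is followed, after 1 base, by TGGCCT, which differs by 1 letter. TATAAA, also searched on both strands, was in 2 of the 11 (Fabp1 and Pltp) and in 13.6% of all. These are matches of letters and not measured sites.

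In lipoprotein assembly, Mttp, which transfers triglyceride to apolipoprotein B in the endoplasmic reticulum, had signals of 70.7 and 64.5 in control liver and 82 and 108.8 in null liver. Both null arrays were above both controls, and the ratio of a null to a control array ran from 1.16 to 1.69. The log2 difference was 0.48 ± 0.21 (SE, 95% interval -0.01 to 0.98, adjusted p = 0.41 in limma), from means of 67.6 ± 4.38 and 95.4 ± 18.95 (SD, n = 2 each). Without null replicate 8 it was 0.28 and without null replicate 7 it was 0.69. Apob, its acceptor, lay the other way, with a log2 difference of -0.21 ± 0.08 (adjusted p = 0.34), with signals of 2578 and 2415.2 in control and 2146.6 and 2174.4 in null liver. P4hb, the partner subunit of Mttp, was at 0.03 ± 0.26 on its brighter probe set (adjusted p = 0.981). Sar1b, which helps large lipoprotein particles leave the endoplasmic reticulum, was at 0.45 ± 0.10 (adjusted p = 0.135), with null signals of 803.6 and 771.6 above the control signals of 586.1 and 565.8. Its other probe set was at 0.20 ± 0.12, and the name of the brighter (ending in _f_at) marks probes that may hybridise with similar RNAs. The brighter Angptl4, the dimmer Crat and the Cyp4a10 probe sets named below have the same ending.

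Apoa4, an apolipoprotein of chylomicrons, very low and high density lipoproteins that rises in mouse liver with fat load, had signals of 631 and 363.7 in control liver and 1453.7 and 1748.1 in null liver. Every ratio of a null to a control array was at least 2.3 and the highest was 4.81. The control arrays differed more from each other (a ratio of 0.576) than the null arrays did (1.2). The means were 497 ± 189 and 1601 ± 208 (SD, n = 2 each). The log2 difference was 1.73 ± 0.25 (SE), a 3.33-fold ratio with a 95% interval from 2.22 to 4.99.

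The adjusted p of Apoa4, 0.0538 in limma, crossed 0.05 under some other settings while its direction held under all 13. It was 0.0294 when dimmer probe sets were filtered out up to the 60th percentile, 0.04565 after quantile normalisation and 0.0145 without control replicate 7 (log2 difference 2.13). It was 0.0585 without control replicate 8 (1.34), 0.134 without null replicate 7 and 0.245 without null replicate 8. The largest value was 0.397, without any filter on dim probe sets.

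**Figure D2:**
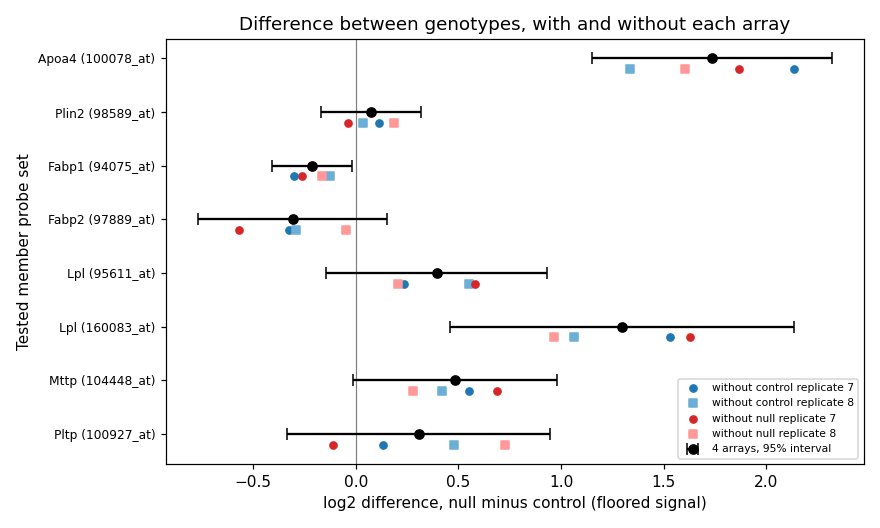
log2 difference of null minus control for the 8 tested member probe sets (black points, bars are 95% intervals from limma, n = 2 arrays per genotype), with the value after leaving out each array in colour. Apoa4 stays between 1.34 and 2.13, whereas Pltp and Plin2 fall below 0 without null replicate 7.

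Apoa4 lies in a cluster of apolipoprotein genes, where the neighbouring protein-coding genes in order are Apoa1, Apoc3, Apoa4, Apoa5 and Zpr1. Apoa1, the main protein of high density lipoprotein, had signals of 9351.9 and 8698 in control liver and 9463.1 and 9016.8 in null liver, which overlap. Its log2 difference was 0.03 ± 0.06 (adjusted p = 0.866 in limma). Apoa5, an activator of triglyceride clearance, was at 2624.8 and 2660.8 in control and 2982.4 and 2788.1 in null liver. Its log2 difference was 0.13 ± 0.07 (adjusted p = 0.538), and its other probe sets were at 0.05 and -0.02. Apoc3 is named by no probe set here. The difference of Apoa4 was thus not shared in size by the measured genes on either side, though the differences between genes were not tested.

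**Figure D3:**
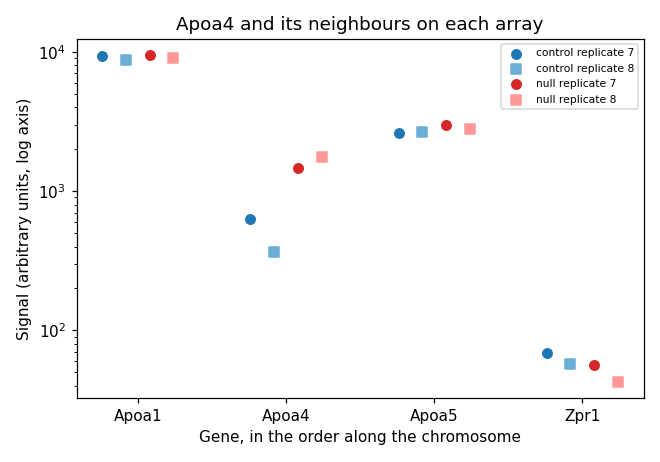
Signal (log axis, arbitrary units) on each of the 4 arrays for Apoa4 and the neighbouring genes with a named probe set, in their order along the chromosome. The control and null points are far apart for Apoa4 (631 and 363.7 against 1453.7 and 1748.1) and close together for Apoa1 and Apoa5.

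The start of Apoa4, the member with the largest difference, is shown from RefSeq (GRCm38.p6, chr9:46240594-46240893, plus strand, 250 bases before to 50 after the start). It has no capitals, since none of the 3 motifs above was found in it.
Apoa4: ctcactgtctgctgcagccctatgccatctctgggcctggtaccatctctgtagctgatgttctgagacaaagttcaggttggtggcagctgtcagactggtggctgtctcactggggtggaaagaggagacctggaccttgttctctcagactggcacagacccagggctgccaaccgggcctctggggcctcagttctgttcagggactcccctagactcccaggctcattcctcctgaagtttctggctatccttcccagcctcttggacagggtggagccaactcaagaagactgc
The absence of these letters from this window says nothing about a receptor acting on the gene from elsewhere.

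Among the genes acting in the circulation, Lpl, the lipase that frees fatty acids from circulating triglyceride and that adult hepatocytes express little, was measured by 2 tested probe sets. The brighter gave 53.3 and 66.2 in control liver and 68.5 and 88.9 in null liver. Both null arrays were higher, the closest pair by a ratio of only 1.03, with a log2 difference of 0.39 ± 0.23 (SE, adjusted p = 0.527 in limma). It ranged from 0.21 without null replicate 8 and 0.24 without control replicate 7 to 0.58 without null replicate 7. The dimmer gave 25.1 and 18.2 in control and 41.7 and 66.1 in null liver. Here the arrays were well apart, with ratios from 1.66 to 3.63 and a log2 difference of 1.30 ± 0.35 (95% interval 0.46 to 2.14, adjusted p = 0.21). The probe sets thus had the same direction and different sizes, and neither passed.

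Macrophages are a known source of Lpl, so their markers are given beside it. Of 12 tested macrophage markers 1 passed the threshold, higher in null liver, against 0.309% of all genes tested. Of the 12, 8 were without overlap higher on the null arrays, against 20.9% of all genes tested. The 1 that passed was Mpeg1 (a pore-forming protein of macrophages, at 150 and 134.3 in control and 361.4 and 377.9 in null liver). The summed signal of these 12 was 2332 and 2342 in control liver and 2927 and 3142 in null liver. Clec4f, which marks Kupffer cells, was at 395.6 and 375 in control and 389.2 and 374.7 in null liver, and Mrc1 also had a negative difference (-0.17). Of 6 adipocyte markers with a probe set, Retn was under the floor on all arrays and Adipoq lay between 5.1 and 15.8. The dim Fabp4 (15 and 15.7 against 19.8 and 34.9) and Cidec (7.8 and 8.1 against 16.1 and 23.1) were higher on both null arrays. The brighter Lep (76.8 and 75.5 against 88.3 and 69.3) and Lipe (58.4 and 58.7 against 68.6 and 48.4) overlapped. The list summed to 173.9 and 170.9 in control and 212 and 183.6 in null liver. The part of any of these cells in the Lpl difference was not tested, and in whole liver more cells of a type and more RNA per cell cannot be told apart.

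Of the partners of Lpl, Angptl4, an inhibitor of the enzyme, was at 109.6 and 185.7 in control liver and 206.5 and 173.9 in null liver, with a log2 difference of 0.41 ± 0.26 (SE, adjusted p = 0.571). Its other probe set was at 0.59 ± 0.24. Apoc2, the cofactor of Lpl, was higher on both null arrays, at 1556.3 and 1396.7 against 1208.9 and 1171.3, a difference of 0.31 ± 0.09 (adjusted p = 0.253). Lmf1, which lipases need to fold, was at -0.04 ± 0.12 (adjusted p = 0.938). None of the 3 passed the threshold.

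Pltp, which moves phospholipid between lipoproteins and remodels high density lipoprotein, had signals of 322.2 and 408.5 on the control arrays. On the null arrays it was at 599.6 and 335.5. Only null replicate 7 was above both controls, and the log2 difference was 0.31 ± 0.27 (SE, 95% interval -0.34 to 0.95, adjusted p = 0.692). Without null replicate 7 it was -0.11, without null replicate 8 it was 0.72, without control replicate 7 it was 0.13 and without control replicate 8 it was 0.48, so its sign depended on which null array was kept.

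Null replicate 7 stood apart in genes of the exocrine pancreas. The 6 acinar markers with a probe set summed to 2860 on it and to 248.8, 355.6 and 231.8 on control replicates 7 and 8 and null replicate 8. Plin2 and Pltp were also highest on this array, whereas Apoa4, Lpl and Mttp were higher on null replicate 8 than on it. The Apoa4 difference was 1.87 without that array and that of Mttp 0.69. The part of pancreatic RNA in the Pltp and Plin2 values was not tested.

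Vldlr, the receptor that binds triglyceride-rich particles at the cell surface and that liver normally expresses little, was near background. Its brighter probe set gave 10.4 and 9.8 in control liver and 10.6 and 20.3 in null liver, so 1 of the null arrays, replicate 8, stood out. The other probe set lay at 0.5 and 0.9 in control and 7.1 and 2.7 in null liver, at or under the floor. Neither was tested, and when all probe sets were tested without a filter the brighter had a log2 difference of 0.54 ± 0.41 (SE, adjusted p = 0.76 in limma). The same fit gave -0.49 ± 0.63 for the brighter Cd36 probe set (adjusted p = 0.88).

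**Figure D4:**
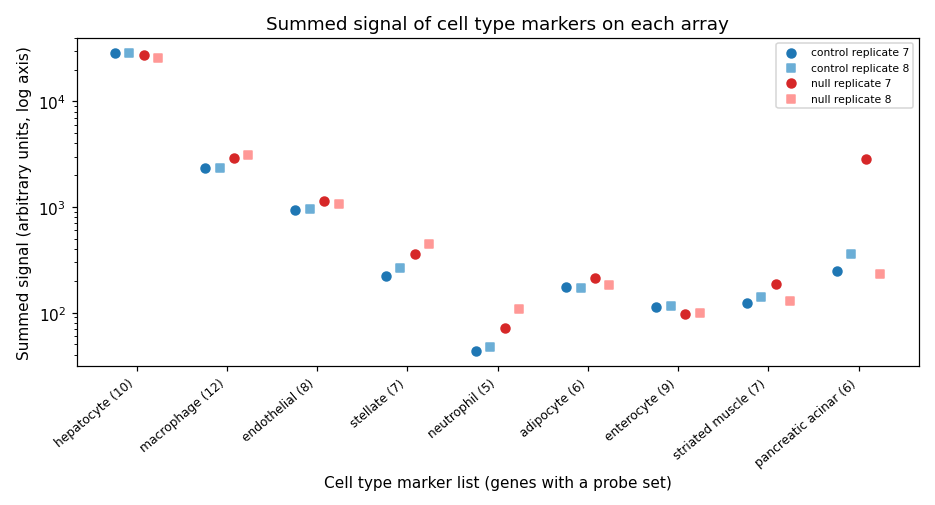
Summed signal (log axis, arbitrary units) of the markers of 9 cell types on each of the 4 arrays, with the number of genes summed in brackets. The acinar sum on null replicate 7 is 2860 against at most 355.6 elsewhere. Macrophage, endothelial, stellate, neutrophil and adipocyte sums are higher on both null arrays, and hepatocyte and enterocyte sums are lower on both.

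The tissue carried the RNA of liver, with Alb between 8991 and 9809.2 on the 4 arrays. The 10 hepatocyte markers summed to 28920 and 28520 in control and 27380 and 25710 in null liver. Of these 10, 0 passed in limma, 7 had a negative difference (Ttr at -0.63 the largest), and 6 were without overlap lower in null liver, against 24% of all genes tested. Stellate cell markers summed to 224.6 and 262.5 in control and 362.6 and 444.1 in null liver, endothelial markers to 939.3 and 952.9 against 1146 and 1074, and neutrophil markers to 43.4 and 47.7 against 71.9 and 107.6. Of 7 tested stellate markers 0 passed, and 3 were without overlap higher in null liver, against 20.9% of all genes tested. Col1a1 (26.7 and 35.4 against 75.5 and 153.6) and Col3a1 (43.3 and 25.6 against 65.7 and 104) had the largest differences. The brightest, Col1a2, overlapped and Pdgfrb was negative (-0.37). Of 7 tested endothelial markers 0 passed. Without overlap, 4 were higher and 1 lower in null liver, against 20.9% and 24% of all genes tested. Eng (618.5 and 629.1 against 762.7 and 704.9) made up most of the endothelial sum. Kdr (-0.01), Tek (-0.29, lower on both null arrays) and Pecam1 (-0.61) were negative. Of 5 neutrophil markers with a probe set 2 were tested, and S100a9 reached 36.1 only on null replicate 8. The 7 striated muscle markers summed to between 124.3 and 188.8, highest on null replicate 7.

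Beyond the members, 8 lists of lipid genes were read from the same fit, with 130 genes of which 81 were tested. Of these 0 passed the threshold in limma, and 19 had an unadjusted p under 0.05, where 13.4% of all 5510 genes tested had one. Groups did not overlap for 24 that were higher and 17 that were lower in null liver, against 20.9% and 24% of all genes tested. The median log2 difference was 0.06 over the 81 genes and -0.01 over all 5510 genes tested, beside 0.31 for the 7 tested members on their brightest probe set, 5 positive and 2 negative. The members' median is the value of Pltp, and without null replicate 7 it was -0.036, with 3 positive and 4 negative. It was 0.14 without control replicate 7 and 0.21 without null replicate 8.

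In fatty acid uptake and activation 0 of 12 tested genes passed (2 at an unadjusted p under 0.05), with a median of 0.15. Acsl4, an acyl-CoA synthetase that prefers arachidonate, was at 0.79 ± 0.16 (adjusted p = 0.11), with 175 and 198.1 in null liver above 114.8 and 100.7 in control liver. Slc27a5, the bile acid and fatty acid CoA ligase of hepatocytes, was at -0.57 ± 0.15 (adjusted p = 0.205), with 1455.6 and 1053.7 in null liver below 1903.7 and 1771.1 in control liver. Acsl5 was at 0.18 ± 0.09 and Got2 at 0.32 ± 0.17. The uptake genes thus had members on both sides of 0. The adipocyte and macrophage binding protein Fabp4 was at 15 and 15.7 in control and 19.8 and 34.9 in null liver (adjusted p = 0.556).

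Droplet proteins and lipases had a median of -0.02, and 0 of 9 tested passed (1 at an unadjusted p under 0.05). Mgll, the monoacylglycerol lipase, was at 0.35 ± 0.12 (adjusted p = 0.299), Bscl2, the seipin of droplet formation, at -0.37 ± 0.17, G0s2, an inhibitor of triglyceride lipase, at 0.51 ± 0.26 and Cideb at -0.13 ± 0.08. Pnpla2, the triglyceride lipase that G0s2 inhibits, was at -0.02 ± 0.13. The 9 droplet genes had 4 positive and 5 negative differences. Cidec, a protein that enlarges droplets in fatty liver, was too dim to be tested but lay at 7.8 and 8.1 in control and 16.1 and 23.1 in null liver. It is named after its values were seen, and the dim Plin4 and Cidea were under the floor on both control arrays and on null replicate 7 and at 15.1 and 9.3 on null replicate 8.

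In triglyceride synthesis 0 of 8 tested passed (1 at an unadjusted p under 0.05), with a median of 0.04. Lpin2, a phosphatidate phosphatase, was at 0.41 ± 0.13 (adjusted p = 0.27), Gpd1 at 0.07 ± 0.09, Agpat3 at -0.10 ± 0.14 and Gpam, the acyltransferase of the first step, at 0.08 ± 0.12. All but Lpin2 lay within the spread between arrays.

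Of 11 other apolipoproteins and the Apob editing enzyme Apobec1, 0 of 12 tested passed (4 at an unadjusted p under 0.05), with 6 positive and 6 negative differences and a median of -0.04. Apom, which carries sphingosine 1-phosphate on high density lipoprotein, was lower on both null arrays, at 960.8 and 759.4 against 1386.7 and 1352.5. Its difference was -0.68 ± 0.13 (adjusted p = 0.0959). Apoh was at -0.18 ± 0.06 (adjusted p = 0.312). Apoe, the ligand of lipoprotein receptors, was at 0.03 ± 0.05. The Apoa4 difference of 1.73 lay outside the range of these 12 genes, -0.68 to 0.31, a description without a test.

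In assembly and remodelling 0 of 10 tested passed (2 at an unadjusted p under 0.05), with a median of 0.10. Beside Sar1b, Lcat, which esterifies plasma cholesterol, was at -0.25 ± 0.09 (adjusted p = 0.329), Abcg1 at 0.35 ± 0.18 and the lysosomal lipase Lipa at 0.20 ± 0.12. Of 7 tested lipoprotein receptors and related proteins, which include the receptor chaperone Lrpap1, 0 passed and 0 had an unadjusted p under 0.05, with a median of -0.09. Sdc1, the heparan sulfate receptor for remnant particles, was at 0.35 ± 0.15 (adjusted p = 0.395), Lrp1 at -0.16 ± 0.11, Msr1 at -0.46 ± 0.32 and Lsr at -0.11 ± 0.10.

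**Figure D5:**
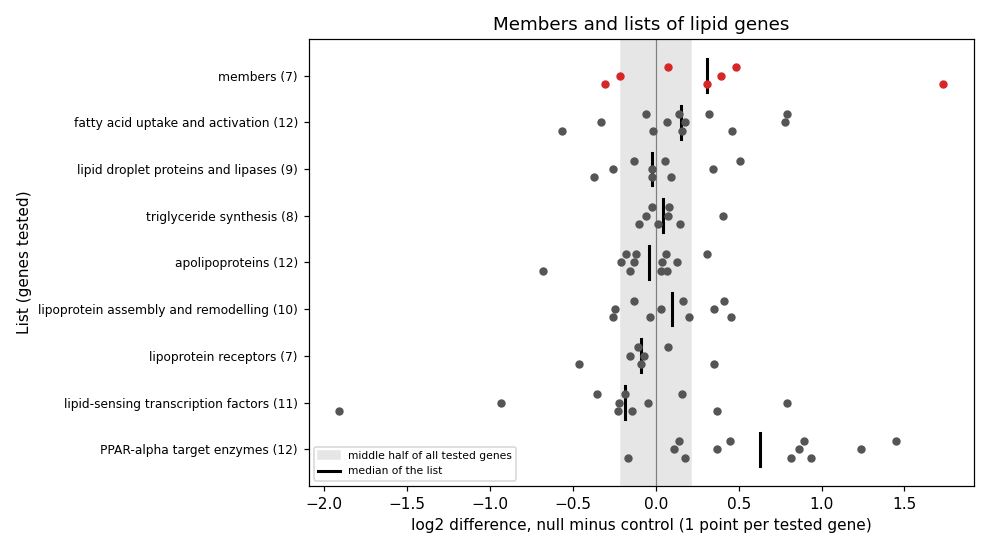
log2 difference of null minus control for each tested gene of the members (red) and of 8 lists of lipid genes (grey), 1 point per gene on its brightest probe set, with the median of each list as a bar and the middle 50 percent of all 5510 genes shaded (-0.21 to 0.21). Apoa4 at 1.73 is the rightmost member, and the PPAR-alpha targets have the highest list median, 0.63.

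Among lipid-sensing transcription factors 0 of 11 tested passed (3 at an unadjusted p under 0.05), with a median of -0.185. Pparg, the receptor of fat storage, was dim and higher on both null arrays, at 48 and 45.1 against 29.2 and 24.7. Its difference was 0.79 ± 0.27 (adjusted p = 0.305). Ppara was at -0.19 ± 0.15 and its partner Rxra at 0.37 ± 0.20. Srebf1, the driver of lipogenesis, was at -0.94 ± 0.14 (adjusted p = 0.0551) and passed with the stricter filter (0.0348) and after quantile normalisation (0.0451). It did not pass with another floor or none, without a filter, without an intensity trend or after median centring. Nr1i3 was at -0.22 ± 0.11 (0.08 and -0.18 on its other probe sets) and Nr0b2 at -1.91 ± 0.76 (adjusted p = 0.365). Nr0b2 had signals of 100 and 91.2 in control and 64.4 and 10 in null liver. Null replicate 8 thus lay near the floor, and the Nr0b2 difference of -3.255 without null replicate 7 rests on that array alone.

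Of 12 tested PPAR-alpha target enzymes 0 passed and 6 had an unadjusted p under 0.05, against 13.4% of all genes tested, with 11 positive differences, 1 negative and a median of 0.63. Groups did not overlap for 7 that were higher, against 20.9% of all genes tested. The median lay between Ehhadh (0.44) and Cyp4a10 (0.82). The controls of Cyp4a10 were far apart, at 82.1 and 261.7 against 311.1 and 214.5 in null liver, so the genotypes overlapped. Cyp4a14 overlapped likewise, at 48.6 and 317.6 in control and 510.7 and 224.6 in null liver. Aldh3a2, which oxidises fatty aldehydes, was at 0.94 ± 0.13 (adjusted p = 0.0551), and passed with the stricter filter (0.0348) and after quantile normalisation (0.0483). Like Srebf1, it did not pass with another floor or none, without a filter, without an intensity trend or after median centring. Pex11a was at 0.86 ± 0.15, Crat at 0.90 ± 0.16 (-0.25 on another probe set) and Acaa1a at 0.37 ± 0.11. Among members that are PPAR targets, the log2 difference was 0.074 for Plin2, -0.21 for Fabp1, and 0.39 and 1.30 for the Lpl probe sets, none past the threshold, and Cd36 was too dim to test. The list was chosen with earlier results of these data known, so its direction is no independent evidence.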

How the data were processed

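Liver RNA was measured on 4 one-colour Affymetrix arrays. Each deposited value is a probe set's linear intensity from GCOS software, which the authors scaled by total chip fluorescence according to the labels. The sources used here do not state the GCOS version or the target value.

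No further normalisation was applied. Signals were floored at 7.1 (25th percentile of all signals), converted to log2 and kept where the mean exceeded log2 of 16.8 (40th percentile), with 66 control probe sets left out. limma 3.58.1 in R 4.3.3 (lmFit, eBayes with an intensity trend) compared genotypes, two-sided, with Benjamini-Hochberg adjustment over 7241 probe sets at 0.05. Residual degrees of freedom were 2, with 4.78 from the pooled variance. Precision is limited by having 4 arrays. An exact permutation test cannot go below 0.333 here.

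Of 12422 probe sets, 10833 had 1 gene symbol in the platform annotation, 396 several (not named) and 1193 none. Symbols were updated through gene identifiers (10817 matched) to GRCm38.p6. A gene with several probe sets is given by the brightest. Between 24.5% and 25.4% of an array's probe sets lay under the floor. All member probe sets are named, and some cell type markers, not always the brightest of their list. Of each list of lipid genes, the up to 4 genes of smallest p are named. Other genes named for their role beside a member (Fabp4, Pnpla2, Apoe, Apoa1, Apoa5, Angptl4, Lmf1, P4hb, Ppara, Rxra, Clec4f, Mpeg1 and dim markers) fall outside that rule. Ehhadh, Cyp4a10 and Cyp4a14 do too. Members and lists were chosen with earlier results of these data known. The fit was run on data simulated from the spread of these arrays, which cannot show that its model suits them. Alternatives were other floors, filters and normalisations, no trend, a replicate block and leaving out each array.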

Additional observations from a re-analysis of the deposited data

How the results depend on the processing

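Probe sets called higher numbered 22 and lower 6. Both fell to 0 with the floor at the 50th percentile, without a filter and without an intensity trend. Without 1 array in turn, 10 to 13 were higher and 0 to 4 lower. Lower calls were 15 with the filter at the 60th percentile and 12 after quantile normalisation. Members past the threshold were 0, and 1 (Apoa4) with that filter, after quantile normalisation and in 1 fit that left out an array (range 0 to 1). List genes past it were 0, and 2 (Srebf1 and Aldh3a2) with that filter and after quantile normalisation. Without null replicate 7, Nr0b2 moved to -3.255, on the 1 null array left.

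Replicate numbers are shared by the genotypes, but the deviations of same-numbered arrays correlated at -0.03 over 7241 probe sets, so the numbers are not taken to pair them. With the number as a block, calls were 37 higher and 15 lower, with 1 member (Apoa4, adjusted p = 0.02595) and 2 list genes (Srebf1 and Aldh3a2).

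Without null replicate 7 the signs of Plin2 and Pltp turned. Without each array in turn Plin2 ran from -0.036 to 0.185 and Pltp from -0.113 to 0.725. The other tested member probe sets kept their direction under each alternative run. Median centring left Plin2 at 2.702e-05. The dimmer Lpl probe set (1.30, against 0.39 for the brighter) was not tested with the filter at the 60th percentile, and second probe sets of Cd36, Vldlr and Fabp1 gave no tested value. The cause of these changes was not tested. Signals near 7.1 limit Cd36 and Vldlr.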
